A study of Mus musculus with 12 samples.

Results

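The response of control mouse sciatic nerve to transection was described from 6 of the 12 RNA-seq libraries of the series, 3 from intact nerve and 3 from injured nerve, chosen by their labelled genotype and treatment. All 6 came from mice of the genotype Dhh-Cre-:Tfebflox/flox;Tfe3+. These animals lack the Cre transgene, whose promoter is active in Schwann cells, carry loxP-flanked Tfeb alleles and are labelled Tfe3+. Injured libraries (labelled 5DPI, for 5 days post injury) held nerve distal to a cut made near the sciatic notch, taken 5 days after the operation with the tissue next to the cut removed. Intact libraries held uncut nerve from the opposite side, whose outer sheath, the epineurium, was stripped before freezing; no such step is recorded for injured nerve. The sources used here give no age. The other 6 libraries, from mice without Tfeb in Schwann cells and without Tfe3, entered the fit for the estimate of spread but are not described.

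When an axon is severed, the piece beyond the cut loses contact with its cell body and breaks down over days, a process called Wallerian degeneration. Schwann cells in that piece give up their myelin, divide and take on a repair state, while macrophages enter and clear debris. Axons carry a small pool of mRNA of their own, and RNA of the cut nerve otherwise comes from Schwann cells, fibroblasts, perineurial and vascular cells and blood-derived cells. In whole tissue, fewer cells of a type and less RNA per cell cannot be told apart.

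Total counts were 27735102 to 31052996 in the 3 intact libraries and 21679659 to 31176640 in the 3 injured libraries. Expression is given below as CPM, a read count scaled to a common library size, with edgeR's TMM scaling, always in the order intact replicates 1, 2 and 3 and injured replicates 1, 2 and 4. Transcripts of Schwann cells were present in both groups: Sox10, the transcription factor that defines the lineage, measured 487, 549 and 503 CPM in intact and 391, 291 and 223 CPM in injured nerve. Tfe3 measured 62.1, 60.8 and 56.7 CPM in intact and 61.7, 67.6 and 55 CPM in injured nerve (log2 change 0.04 ± 0.10), and Tfeb 22.6, 23.9 and 26.9 CPM in intact and 24, 18.2 and 18.4 CPM in injured nerve (log2 change -0.28 ± 0.21); neither passed the test. Some libraries stood apart from their group. Injured replicate 1 had 10712 counts of Xist and 244 counts from 4 Y-linked genes, against at most 9 and at least 1907 in the other 5 libraries. Injured replicate 1 thus came from a different mouse than any of the 3 intact libraries. By these counts it was female and the other 5 libraries male, so sex was not balanced between the groups. Injured replicate 1 still held some Y-linked counts, and a mixture of samples was not tested. The same library held most of the red cell transcripts: 8 marker genes summed to 13569 CPM there, against 273 and 809 CPM in the other injured libraries and 48.4 to 252 CPM in intact nerve. Intact replicate 2 was low in transcripts of fat cells, with 579 CPM summed over 11 markers against 2918 and 4565 CPM in the other intact and 3145 to 5204 CPM in the injured libraries. It was also low in perineurial transcripts, with 1587 CPM over 10 markers against 2885 and 3179.8 CPM in its group.

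Transection changed a large share of the gene models that could be tested. Of 22384 models, 5452 rose (24.4%) and 5022 fell (22.4%) at an adjusted p under 0.05, together 10474 models or 46.8%. The threshold refers to edgeR's quasi-likelihood test with Benjamini-Hochberg adjustment over all tested models, and fold changes are log2 values, injured against intact, with the standard error of the fit. The median over all tested models was 0.09, and 1398 models rose and 1366 fell when a change of more than 2-fold (a minimum log2 change of 1) was required. Without injured replicate 1 the counts were 5103 and 4959, and without intact replicate 2 they were 4469 and 5120. With sex as a covariate they were 5134 and 4922. In 53.3% of models the 3 injured libraries lay wholly above or wholly below the 3 intact ones. These shares are the background against which each gene group below is to be read.

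Intact nerve spent its reads on few genes and injured nerve spread them. The 10 genes with the most counts held 9.73%, 11.7% and 10.5% of all counts in the intact libraries and 4.82%, 4.36% and 4.44% in the injured ones. The most abundant transcript of injured nerve was Apod, a lipid-binding secreted protein, with 0.776% to 1.14% of counts. Apod measured 3032, 4050.4 and 2203 CPM in intact and 11174, 7382 and 7942 CPM in injured nerve (log2 change 1.51 ± 0.21, adjusted p = 4.55e-05). Of genes outside the myelin, cell division and repair lists, the largest gains in CPM after Apod were those of Psap, which encodes the precursor of the saposins, and Vim, the intermediate filament of mesenchymal cells and immature Schwann cells. Psap measured 1464, 1370.1 and 1338 CPM in intact and 6144, 6338 and 5499 CPM in injured nerve (log2 change 2.11 ± 0.12, adjusted p = 4.93e-09). Vim measured 1723, 2015 and 1715 CPM in intact and 6621, 5233 and 4989 CPM in injured nerve (log2 change 1.63 ± 0.13, adjusted p = 1.03e-07). The lysosomal proteases cathepsin B (Ctsb, log2 change 2.08 ± 0.13) and cathepsin D (Ctsd, 2.06 ± 0.11) and the actin-binding peptide gene Tmsb4x (1.54 ± 0.14) followed. The carbohydrate-binding lectin Lgals3, abundant in phagocytes, went from 31.6, 31 and 31.4 CPM to 2367, 2243 and 2031 CPM (log2 change 6.14 ± 0.12, adjusted p = 5.07e-13), and every injured library lay far above every intact one.

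The haemoglobin genes Hba-a1, Hba-a2 and Hbb-b1 completed the 10 largest gains, but their levels came mostly from 1 library. Hba-a1 measured 78.8, 15.1 and 24 CPM in intact and 4017, 92.3 and 248 CPM in injured nerve, and its change (log2 change 5.21 ± 1.53, adjusted p = 0.0214) was 2.11 without injured replicate 1 and did not pass the test there, nor without intact replicate 2 or 3. The haemoglobin genes are near-identical pairs whose reads cannot be assigned with certainty. The largest losses in CPM outside the 3 lists were those of Sparc, a secreted matrix-binding protein, and Fth1, the heavy chain of the iron store ferritin. Sparc measured 8730.0, 11524 and 9391 CPM in intact and 2989, 3601 and 3299 CPM in injured nerve (log2 change -1.58 ± 0.13, adjusted p = 1.55e-07). Scd2, a fatty acid desaturase, measured 3490.5, 5428 and 4095 CPM in intact and 786, 885 and 752 CPM in injured nerve (log2 change -2.43 ± 0.15, adjusted p = 8.6e-09). Ndrg1, a gene mutated in a hereditary demyelinating neuropathy, measured 3258, 4061 and 3422 CPM in intact and 445, 442 and 388 CPM in injured nerve (log2 change -3.07 ± 0.12, adjusted p = 7.37e-11). Also among the 10 were the adhesion molecule Cadm4 (-2.65 ± 0.15), Sema3b (-2.28 ± 0.14), Secisbp2l (-4.11 ± 0.22), Plekhb1 (-2.93 ± 0.16), Plekha4 (-5.14 ± 0.19) and the nuclear long noncoding RNA Neat1 (-0.95 ± 0.14).

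By ratio, among genes whose average log2 CPM reached 5, the steepest falls reached levels near 0. Ddn, which encodes dendrin, measured 415, 477 and 429 CPM in intact and 0.0313, 0.535 and 0.205 CPM in injured nerve (log2 change -10.70 ± 0.42, adjusted p = 2.07e-09). Plk5, a polo-like kinase found in non-dividing cells, measured 98.9, 139 and 108 CPM in intact and 0.0939, 0.252 and 0.246 CPM in injured nerve (log2 change -9.19 ± 0.36, adjusted p = 6.21e-10). Sec14l5 measured 84.2, 185 and 138 CPM in intact and 0.0626, 0.252 and 0.37 CPM in injured nerve (log2 change -9.26 ± 0.59, adjusted p = 6.31e-07). The beta-spectrin listed under its older symbol Spnb5 went from 739, 1225 and 866 CPM to 1.53, 4.56 and 2.75 CPM (log2 change -8.32 ± 0.39, adjusted p = 1.21e-08). All 3 injured libraries were low for each of these genes, which were chosen among called genes whose groups did not overlap. Tmem229a (-7.65 ± 0.38), the kinesin Kif19a (-6.68 ± 0.16), Ccdc37 (-6.66 ± 0.21), Fam107a (-6.36 ± 0.70), the epithelial cadherin Cdh1 (-6.19 ± 0.22) and the glycosyltransferase Extl1 (-5.94 ± 0.32) completed the 10.

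Among genes whose average log2 CPM reached 5, the steepest rises besides the haemoglobin genes were those of Gzmb and Sema4f. Sema4f, a transmembrane semaphorin, measured 1.13, 0.248 and 1.51 CPM in intact and 137, 111 and 70 CPM in injured nerve (log2 change 6.74 ± 0.48, adjusted p = 9.13e-07). Tmem158 measured 3.26, 0.992 and 5.52 CPM in intact and 128, 158 and 157 CPM in injured nerve (log2 change 5.48 ± 0.50, adjusted p = 1.18e-05). Gadd45a, a stress-inducible regulator of growth arrest and DNA repair, measured 20.4, 9.59 and 10.3 CPM in intact and 670.0, 577 and 465 CPM in injured nerve (log2 change 5.41 ± 0.36, adjusted p = 3.4e-07). For Gzmb, the protease granzyme B of cytotoxic lymphocytes, the 3 intact libraries held 1 count in all and the injured ones 266, 93.7 and 64.8 CPM (adjusted p = 3.69e-05). Other lymphocyte genes were far lower: Prf1, which encodes the perforin that works with granzymes, had 0.751, 0.126 and 0.575 CPM and Gzma 0.219, 0.943 and 0.986 CPM in injured nerve, and Nkg7 0.689, 0.535 and 0.411 CPM. Prf1 and Nkg7 passed the test in the full fit but not without single libraries: Prf1 without injured replicate 1 or 4 or any 1 intact replicate, Nkg7 without injured replicate 1 or 2 or intact replicate 1 or 3.

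**Figure D1:**
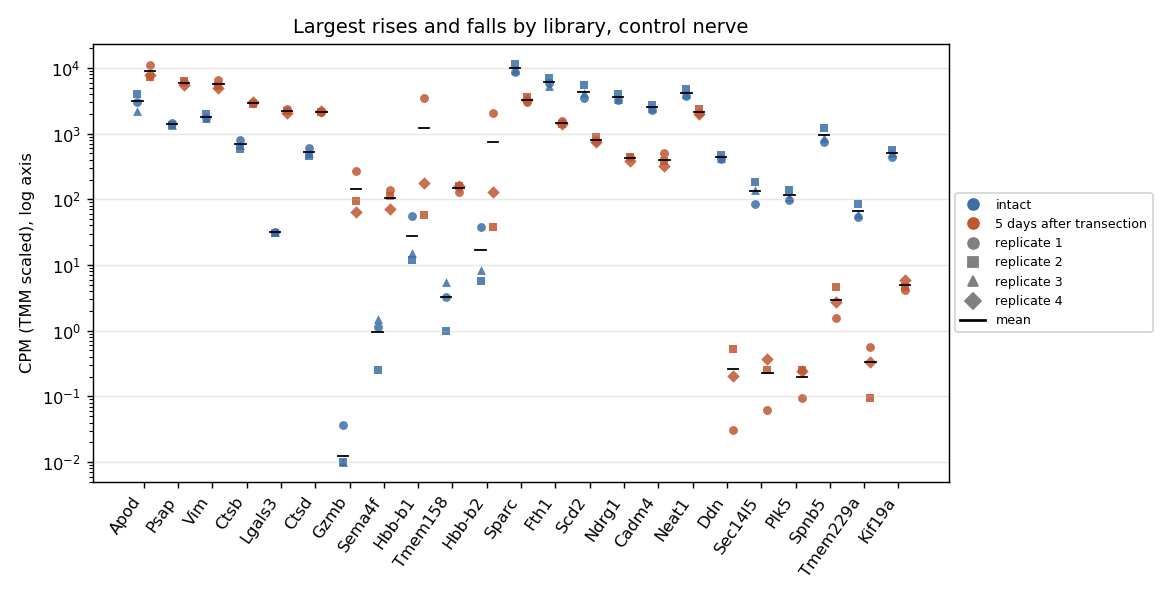
CPM in each of the 6 libraries (log axis; 0 drawn at 0.01) for the genes with the largest gains or losses in CPM or in ratio, blue for intact and orange for injured nerve, symbols for replicates and bars for group means. The genes were chosen among called genes whose groups do not overlap, so the separation of the groups is a condition of being shown. The 2 haemoglobin genes differ from the rest in that injured replicate 1 lies far above the other injured libraries.

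Few genes were absent from one state and present in the other. With absence set at less than 0.1 CPM in each of 3 libraries and presence at 1 CPM or more in each of 3, 18 models were present only in injured and 9 only in intact nerve, and 10 and 6 of these carry predicted or clone names. After Gzmb the highest named gene of the first kind was Asgr1, a subunit of the asialoglycoprotein receptor best known from liver, with 0.0366, 0.0413 and 0 CPM before and 17.3, 11.9 and 9.28 CPM after transection. Gm12856, Gm15428 and 1190003J15Rik followed at 9.92, 9.34 and 6.7 CPM, 11.6, 7.61 and 4.81 CPM and 5.85, 6.35 and 5.3 CPM in injured nerve. Of the second kind the highest were 4921508A21Rik, with 9.91, 9.34 and 8.71 CPM before and 0, 0.0314 and 0.0411 CPM after transection, and Hamp2, a relative of the iron hormone hepcidin, with 6.66, 10.1 and 8.05 CPM before and 0, 0.0314 and 0 CPM after transection. The clone-named 1500009C09Rik measured 3.58, 4.88 and 5.23 CPM and AC122808.1 2.12, 3.64 and 1.69 CPM in intact nerve. The microRNA gene Mir208a had 1.17, 4.13 and 1.65 CPM in intact nerve and no count in the 3 injured libraries, where 3 counts in all would correspond to 0.0361 CPM.

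Transcripts of neurons split in opposite directions. Of a list of 25 neuronal and axonal mRNAs, 6 of 23 tested rose and 10 fell, against 24.4% and 22.4% of all models. The median log2 change was -0.42. Subunits of neurofilaments, the filaments that fill large axons, fell to near 0: Nefh measured 15.1, 21.1 and 14.9 CPM in intact and 0, 0 and 0.329 CPM in injured nerve (log2 change -7.44 ± 0.67, adjusted p = 8.37e-07) and Nefl 6.84, 12.6 and 8.08 CPM in intact and 0.188, 0.0629 and 0.123 CPM in injured nerve (log2 change -6.15 ± 0.60, adjusted p = 1.19e-06). Nefm (-3.74 ± 0.20) and the related filament peripherin (Prph, -3.65 ± 0.38) fell as well, as did Stmn3, which destabilises microtubules (-6.06 ± 0.67), and Snap25, a synaptic fusion protein (-3.66 ± 0.48). These are low-abundance transcripts of intact nerve, none above 27.4 CPM.

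Other genes with neuronal names rose at the same time. Tubb3, the beta-tubulin used as a marker of neurons, measured 6.29, 7.85 and 6.92 CPM in intact and 148, 265 and 221 CPM in injured nerve (log2 change 4.91 ± 0.29, adjusted p = 5.75e-08). Syn1, which encodes the synaptic vesicle protein synapsin I, measured 13.5, 15.3 and 14.3 CPM in intact and 115, 104 and 95.1 CPM in injured nerve (log2 change 2.87 ± 0.11, adjusted p = 1.16e-10). Uchl1, a deubiquitinase abundant in neurons, measured 63.3, 76.5 and 67.6 CPM in intact and 398, 325 and 248 CPM in injured nerve (log2 change 2.23 ± 0.16, adjusted p = 3.5e-08). Stmn2, an axonal growth protein, did not pass the test and overlapped between groups (28.5, 17.3 and 30 CPM against 24.7, 21.2 and 26.7 CPM, log2 change -0.06 ± 0.24). The list's median changed sign between alternatives, from -0.93 without injured replicate 4 to 0.02 without injured replicate 2, so no direction is given for the list as a whole.

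The same split ran through tubulins and kinesins. Of this list, 11 of 30 tested members rose and 14 fell, with a median log2 change of -0.30. The rises were led by beta-tubulins: Tubb2b measured 124, 149 and 149 CPM in intact and 641, 538 and 549 CPM in injured nerve (log2 change 2.03 ± 0.12, adjusted p = 7.27e-09), and Tubb6 (2.89 ± 0.21) and Tubb2a (1.12 ± 0.12) rose beside Tubb3. The falls were led by kinesin-1 and kinesin-3 motors, which carry cargo outward along axons and are also found in other cells. Kif1a measured 808, 1501 and 1034 CPM in intact and 139, 122 and 101 CPM in injured nerve (log2 change -3.20 ± 0.22, adjusted p = 5.05e-08), Kif5c 54.4, 103 and 60.5 CPM in intact and 2.16, 2.45 and 3.98 CPM in injured nerve (log2 change -4.67 ± 0.29, adjusted p = 2.96e-08) and Kif5a 53.4, 93 and 70.3 CPM in intact and 10, 10.6 and 8.58 CPM in injured nerve (log2 change -2.89 ± 0.19, adjusted p = 1.84e-08). Among intermediate filaments 4 of 19 tested rose and 6 fell, against 24.4% and 22.4% of all models, with a median log2 change of -0.01. The 4 that rose were Vim and the nuclear lamins Lmnb1 (3.24 ± 0.15), Lmnb2 (1.77 ± 0.18) and Lmna (1.04 ± 0.14).

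Genes of the actin system rose more often than they fell. Of actin and myosin motor genes, 16 of 32 tested members rose and 4 fell, against 24.4% and 22.4% of all models. The median log2 change was 0.54. The smallest p-values were those of Myo1f, a myosin of leukocytes (13.9, 14.9 and 11.7 CPM in intact and 64.7, 77.4 and 65.7 CPM in injured nerve; log2 change 2.36 ± 0.14, adjusted p = 8.92e-09), the actin-bundling protein gene Tagln2 (2.11 ± 0.14), Myo1e (1.27 ± 0.09) and Pfn1, which encodes profilin (1.58 ± 0.12).

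More claudin genes fell than rose. Claudins are the strand proteins of tight junctions, which in nerve seal myelin loops, the perineurium and vessels. Of these, 1 of 16 tested members rose and 8 fell, against 24.4% and 22.4% of all models. The median log2 change was -1.15. Cldn19, the claudin of Schwann cell myelin, measured 1146, 1395 and 1188 CPM in intact and 17.2, 19.3 and 18.6 CPM in injured nerve (log2 change -6.08 ± 0.14, adjusted p = 8.61e-13). Cldn5, the claudin of endothelium, measured 109, 101 and 140.5 CPM in intact and 20.4, 34.5 and 27.6 CPM in injured nerve (log2 change -2.09 ± 0.23, adjusted p = 9.25e-06). Cldn14 (-3.38 ± 0.26) and Cldn12 (-1.55 ± 0.13) fell as well. Without intact replicate 1, injured replicate 1 or injured replicate 2, 2 claudins rose in place of 1. Of 10 perineurial markers 0 rose by edgeR's test, also at an unadjusted p under 0.05 and by DESeq2, and 2 fell. Epithelial cadherin, Cdh1, which joins the loops of myelinating Schwann cells to each other, measured 287, 469 and 342 CPM in intact and 4.01, 5.82 and 5.18 CPM in injured nerve (log2 change -6.19 ± 0.22, adjusted p = 7.33e-11). P-cadherin, Cdh3, measured 18.4, 19.4 and 17.8 CPM in intact and 0.751, 1.07 and 1.64 CPM in injured nerve (log2 change -4.02 ± 0.32, adjusted p = 1.28e-07), and the scaffold protein Tjp1 fell by less (-1.19 ± 0.11). Zeb1, a transcription factor known to repress Cdh1, rose (132, 146 and 137 CPM in intact and 282, 249.6 and 199 CPM in injured nerve; log2 change 0.81 ± 0.11, adjusted p = 4.05e-05). Over the list of cadherins and transcription factors of epithelial-mesenchymal transition, 4 of 20 rose and 7 fell; 1 rose without intact replicate 3, and 2 without intact replicate 1, intact replicate 2 or injured replicate 2.

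Gap junctions join neighbouring cells or, in myelin, the layers of 1 Schwann cell. Of 14 connexin and pannexin genes tested, 3 rose and 3 fell, near the 24.4% and 22.4% of all models. Panx1, which forms ATP-releasing channels in the plasma membrane, measured 4.72, 6.24 and 3.83 CPM in intact and 41.4, 40.5 and 40.6 CPM in injured nerve (log2 change 3.05 ± 0.18, adjusted p = 6.72e-09). Gjc1, connexin 45, rose (1.86 ± 0.15) and Gjc3, connexin 29 of the innermost Schwann cell membrane, fell (185, 297 and 252 CPM in intact and 74.5, 62 and 48.1 CPM in injured nerve; log2 change -1.99 ± 0.19, adjusted p = 1.25e-06). Gjb1, the connexin 32 of myelin that is mutated in X-linked Charcot-Marie-Tooth disease, fell by less, and its groups overlapped (151, 200.4 and 177 CPM in intact and 161, 115 and 95.3 CPM in injured nerve; log2 change -0.51 ± 0.16, adjusted p = 0.0205). Gjb1 did not pass the test without injured replicate 2 (-0.46) or 4 (-0.35) or intact replicate 3 (-0.51).

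The Hippo pathway restrains the coactivators YAP and TAZ, which act through TEAD factors. Of this list, 2 of 24 tested members rose and 14 fell, against 24.4% and 22.4% of all models. The median log2 change was -0.48. Yap1 measured 195, 245 and 215 CPM in intact and 124, 134 and 123 CPM in injured nerve (log2 change -0.78 ± 0.10, adjusted p = 2.29e-05), and TAZ, listed as Wwtr1, changed by -0.44 ± 0.11. The kinase Lats2 (-1.46 ± 0.11) and the partner proteins Amotl2 (-1.91 ± 0.14) and Ajuba (listed as Jub, -1.80 ± 0.15) fell further. Tead2 was 1 of the 2 that rose, with 12.2, 12.2 and 14.9 CPM in intact and 61.1, 54.6 and 49.4 CPM in injured nerve (log2 change 2.07 ± 0.14, adjusted p = 3.63e-08), while Tead3 (-1.44 ± 0.20) and Tead4 (-0.71 ± 0.14) fell. The other was the receptor kinase Axl (1.43 ± 0.16).

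Several ion channel and transporter genes that were abundant in intact nerve fell. Of sodium channels and pumps, 5 of 24 rose (3 without intact replicate 2) and 9 fell. Scn7a, a sodium channel of non-myelinating Schwann cells that is not opened by voltage, measured 325, 550.0 and 278 CPM in intact and 37.6, 36.2 and 39.3 CPM in injured nerve (log2 change -3.35 ± 0.20, adjusted p = 1.42e-08). The glial subunit of the sodium pump, Atp1b2, measured 191, 244 and 193 CPM in intact and 29.9, 33.3 and 35.9 CPM in injured nerve (log2 change -2.66 ± 0.18, adjusted p = 2.35e-08), and the cotransporter Slc12a2 (-1.94 ± 0.16) and the channel subunit Scn3b (-3.10 ± 0.21) fell too. Of 82 potassium channel genes tested, 10 rose and 20 fell, against 24.4% and 22.4% of all models. The share that fell was thus near the background, and the share that rose was below it. The family's median log2 change was 0.17 and changed sign between alternatives, from -0.26 without injured replicate 4 to 0.29 without injured replicate 2. No direction is therefore given for the family as a whole. Kcnk1, a leak channel, measured 114, 154 and 131 CPM in intact and 8.77, 4.65 and 6.45 CPM in injured nerve (log2 change -4.33 ± 0.28, adjusted p = 1.54e-07). Kcna1, a delayed rectifier, measured 378, 583 and 423 CPM in intact and 160.3, 135 and 118 CPM in injured nerve (log2 change -1.74 ± 0.22, adjusted p = 2.98e-05). Kcnj12 (-2.23 ± 0.18) and Kcnmb4 (-2.14 ± 0.17) also fell, and Kcnn4, a calcium-gated channel of leukocytes and dividing cells, rose (10.5, 14.1 and 11.4 CPM in intact and 42.3, 43.1 and 44.8 CPM in injured nerve; log2 change 1.85 ± 0.16, adjusted p = 2.15e-07).

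Of chloride and anion channels 6 of 30 rose and 7 fell, close to the 24.4% and 22.4% of all models. Clcn2, a chloride channel, measured 200.3, 224 and 209 CPM in intact and 34.2, 38.3 and 33.4 CPM in injured nerve (log2 change -2.58 ± 0.13, adjusted p = 1.25e-09). Clic1 measured 119, 95.5 and 121 CPM in intact and 481, 494 and 471 CPM in injured nerve (log2 change 2.11 ± 0.12, adjusted p = 3.28e-09) and Clca2 1.57, 1.16 and 2.35 CPM in intact and 27.9, 57 and 74.1 CPM in injured nerve (log2 change 4.95 ± 0.43, adjusted p = 1.33e-06). Of TRP, Piezo and acid-sensing channels, 8 of 26 rose and 6 fell, also near those shares. The mechanically gated channel Piezo1 (listed as Fam38a) measured 84.4, 48.6 and 77.3 CPM in intact and 147, 182 and 159 CPM in injured nerve (log2 change 1.21 ± 0.17, adjusted p = 3.48e-05) and its relative Piezo2 (Fam38b) 88, 101 and 87.1 CPM in intact and 68.6, 75.7 and 67.1 CPM in injured nerve (log2 change -0.38 ± 0.10, adjusted p = 0.00722), so the pair moved in opposite directions. Trpv2 (1.70 ± 0.24) and the acid-sensing channel Asic1 (Accn2, 1.33 ± 0.20) rose, and the polycystin channel Pkd2 fell (-1.27 ± 0.15).

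Of glutamate and GABA genes, 7 of 34 rose (11 without injured replicate 2) and 9 fell, near the 24.4% and 22.4% of all models. Subunits of AMPA-type glutamate receptors moved in opposite directions: Gria1 measured 1.9, 3.51 and 3.16 CPM in intact and 27.3, 34.2 and 38.5 CPM in injured nerve (log2 change 3.54 ± 0.30, adjusted p = 3.15e-07) and Gria3 62.8, 111 and 66 CPM in intact and 17.9, 21 and 21.8 CPM in injured nerve (log2 change -1.98 ± 0.21, adjusted p = 4.27e-06). Of purine receptors and the enzymes that break down extracellular nucleotides, 10 of 24 rose and 5 fell. P2ry2 (-2.54 ± 0.18), the ectoenzyme Enpp1 (-2.26 ± 0.25) and the ATP-gated channel P2rx7 (-1.11 ± 0.18) fell, while P2ry6, a receptor for uridine nucleotides found on phagocytes, rose (7.17, 7.11 and 6.43 CPM in intact and 17.9, 19.7 and 23.6 CPM in injured nerve; log2 change 1.56 ± 0.17, adjusted p = 3.68e-06).

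Schwann cells use cyclic AMP to start and keep myelination, and adenylyl cyclases make it. The calcium-stimulated cyclase Adcy1 measured 327, 550.2 and 421 CPM in intact and 27.6, 21.4 and 15.2 CPM in injured nerve (log2 change -4.34 ± 0.23, adjusted p = 6.07e-09). Adcy8, another calcium-stimulated cyclase, measured 66.5, 88.6 and 63.9 CPM in intact and 10.4, 11.3 and 12.7 CPM in injured nerve (log2 change -2.67 ± 0.21, adjusted p = 1.34e-07). The scaffold Akap12 fell (-1.92 ± 0.14), and the degrading enzyme Pde8a rose (1.45 ± 0.12). Over the whole list of the pathway 9 of 32 rose and 9 fell, near the 24.4% and 22.4% of all models. Regulators of G protein signalling, which switch off G proteins, rose more often than they fell: 9 of 21 tested members rose and 1 fell, with a median log2 change of 0.60. Rgs16 measured 16.4, 9.92 and 13.1 CPM in intact and 265, 258 and 252 CPM in injured nerve (log2 change 4.30 ± 0.20, adjusted p = 1.23e-09). Rgs8 measured 0.293, 0.331 and 0.597 CPM in intact and 12, 19.2 and 20.5 CPM in injured nerve (log2 change 5.38 ± 0.39, adjusted p = 5.2e-08). Rgs11 was the 1 member that fell (68.8, 78.5 and 71.2 CPM in intact and 3.26, 3.46 and 1.4 CPM in injured nerve; log2 change -4.73 ± 0.24, adjusted p = 3.17e-09).

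Among growth and guidance factors the changes were large in both directions. Of 16 fibroblast growth factors tested, 2 rose (1 without intact replicate 2 or injured replicate 4) and 7 fell. Over all models 24.4% rose and 22.4% fell. Fgf1, a growth factor without a secretion signal, measured 483, 868 and 559 CPM in intact and 25.7, 38.2 and 32.5 CPM in injured nerve (log2 change -4.31 ± 0.23, adjusted p = 5.88e-09). Fgf4 measured 35.2, 42.2 and 33.1 CPM in intact and 0, 0 and 0.123 CPM in injured nerve and Fgf3 14.4, 17.6 and 15.1 CPM in intact and 0.407, 0.88 and 0.411 CPM in injured nerve; both fell (adjusted p = 1.36e-08 and 1.44e-07). Fgf5 rose, with 0.183, 0.165 and 0.386 CPM in intact and 44.9, 29.2 and 20.2 CPM in injured nerve (log2 change 6.96 ± 0.50, adjusted p = 1.11e-07). Of 20 semaphorins, which guide axons and cells, 6 rose and 9 fell. Sema6c measured 451, 552 and 462 CPM in intact and 15.7, 21.5 and 14.3 CPM in injured nerve (log2 change -4.83 ± 0.17, adjusted p = 5.79e-11), and Sema4g (-3.65 ± 0.24) and Sema4c (-1.76 ± 0.11) fell beside Sema3b. Among the dual specificity phosphatases, only some of which switch off MAP kinases, 6 of 23 rose and 11 fell. The shares of semaphorins and of these phosphatases that rose were near that of all models. Dusp15 measured 1007, 1377 and 1182 CPM in intact and 18.7, 24.6 and 25.1 CPM in injured nerve (log2 change -5.71 ± 0.19, adjusted p = 2.3e-11). Dusp10, which acts on the stress kinases JNK and p38, measured 4.06, 2.69 and 2.99 CPM in intact and 69.7, 64.2 and 65.5 CPM in injured nerve (log2 change 4.35 ± 0.24, adjusted p = 3.27e-09).

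More genes of the circadian clock fell than rose. Intact and injured nerves were collected at 1 time, per the labels. In the clock, Clock or Npas2 with Bmal1 (listed as Arntl) bind E-boxes (CACGTG) and drive Per, Cry, Nr1d1, Dbp, Tef and Ciart, while Dbp, Tef and Hlf bind D-boxes. 5 of 23 tested members rose and 14 fell, against 24.4% and 22.4% of all models. The median log2 change was -0.99. The upstream windows of Ciart and Per3 are shown because Ciart had the most E-boxes of the list and Per3 was the 1 member with a D-box. They are the 250 bases before the RefSeq start (GRCm38.p6), at chr3:95882229-95882478 and chr4:151044666-151044915, both on the minus strand. Capitals mark CACGTG in Ciart and TTATGTAA in Per3.

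Ciart: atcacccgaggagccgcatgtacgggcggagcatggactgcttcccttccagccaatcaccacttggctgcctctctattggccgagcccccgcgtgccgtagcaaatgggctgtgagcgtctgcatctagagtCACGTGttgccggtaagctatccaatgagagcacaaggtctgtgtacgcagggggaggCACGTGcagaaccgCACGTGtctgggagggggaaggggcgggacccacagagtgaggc
Per3: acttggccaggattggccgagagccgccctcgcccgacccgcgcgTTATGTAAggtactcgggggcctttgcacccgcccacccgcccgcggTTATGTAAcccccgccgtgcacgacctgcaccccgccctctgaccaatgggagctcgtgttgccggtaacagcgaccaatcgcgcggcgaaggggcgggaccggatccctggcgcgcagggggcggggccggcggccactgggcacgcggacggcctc

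The Ciart window held 3 E-boxes, 116, 58 and 44 bases before the start, and the Per3 window 2 D-boxes, 205 and 158 bases before it. Matches were counted on both strands; CACGTG is its own reverse complement, and the D-box was searched as TTATGTAA and TTACATAA. An E-box occurred in 5 of the 18 clock genes with an entry (27.8%) and in 6.86% of all 27025 genes, tested or not. Among genes with an entry, it occurred in 9.18% of the 3409 that rose and 9.1% of the 3383 that fell. A D-box occurred in 0.977% of all genes. A match describes these letters only.

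The fall reached most outputs and repressors of the clock. Ciart (listed as Gm129) measured 6.84, 5.17 and 7.34 CPM in intact and 1.6, 1.64 and 3.12 CPM in injured nerve (log2 change -1.62 ± 0.30, adjusted p = 0.000411). Per3 measured 77.3, 84.8 and 78.7 CPM in intact and 27.8, 30.1 and 28.1 CPM in injured nerve (log2 change -1.49 ± 0.16, adjusted p = 3.89e-06). Cry2, a repressor of the clock, measured 62.8, 70.3 and 71.2 CPM in intact and 26.8, 26.9 and 26.8 CPM in injured nerve (log2 change -1.34 ± 0.11, adjusted p = 1.66e-07), with injured libraries almost equal to each other. The outputs Hlf (31.7, 32.9 and 28.5 CPM in intact and 8.23, 4.34 and 5.18 CPM in injured nerve; log2 change -2.39 ± 0.26, adjusted p = 3.08e-06), Tef (-1.20 ± 0.15), Dbp (-1.11 ± 0.30) and Nr1d1 (-1.23 ± 0.14) fell too. Per1 measured 61.9, 147 and 179.6 CPM in intact and 41.7, 27 and 49.7 CPM in injured nerve (log2 change -1.71 ± 0.44, adjusted p = 0.00981). Per2 measured 11.2, 15.7 and 20.8 CPM in intact and 4.79, 8.52 and 10.1 CPM in injured nerve (log2 change -1.03 ± 0.31, adjusted p = 0.0145); both varied more between intact libraries than Per3 did. Per2 did not pass without injured replicate 1 (-0.77) or intact replicate 3 (-0.79).

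The activators did not move together. Arntl fell, with 28.6, 35.5 and 28.1 CPM in intact and 11.5, 20.4 and 14.6 CPM in injured nerve (log2 change -0.99 ± 0.27, adjusted p = 0.00771), while Clock (65.1, 72.7 and 65.7 CPM in intact and 103, 88.2 and 90.1 CPM in injured nerve; log2 change 0.47 ± 0.09, adjusted p = 0.000716) and its substitute Npas2 (11.3, 6.24 and 9.2 CPM in intact and 36.4, 36.5 and 26 CPM in injured nerve; log2 change 1.89 ± 0.29, adjusted p = 0.000108) rose. Nfil3, which opposes Dbp, Tef and Hlf at D-boxes, rose (1.43 ± 0.38, adjusted p = 0.00694). Cry1 (-0.46 ± 0.19) and Bhlhe41 (0.33 ± 0.13) did not pass the test, though Cry1 did without intact replicate 2 (-0.55) and Bhlhe41 without injured replicate 4 (0.40). The list's median lay between -1.09 and -0.77 over the alternatives, the latter without injured replicate 1, where 12 members fell. Without intact replicate 3, 11 fell, with a median of -0.79. When a minimum log2 change of 1 was required, 2 rose and 3 fell, so most falls were not shown to exceed 2-fold. The sources used here give no time of day.

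**Figure D2:**
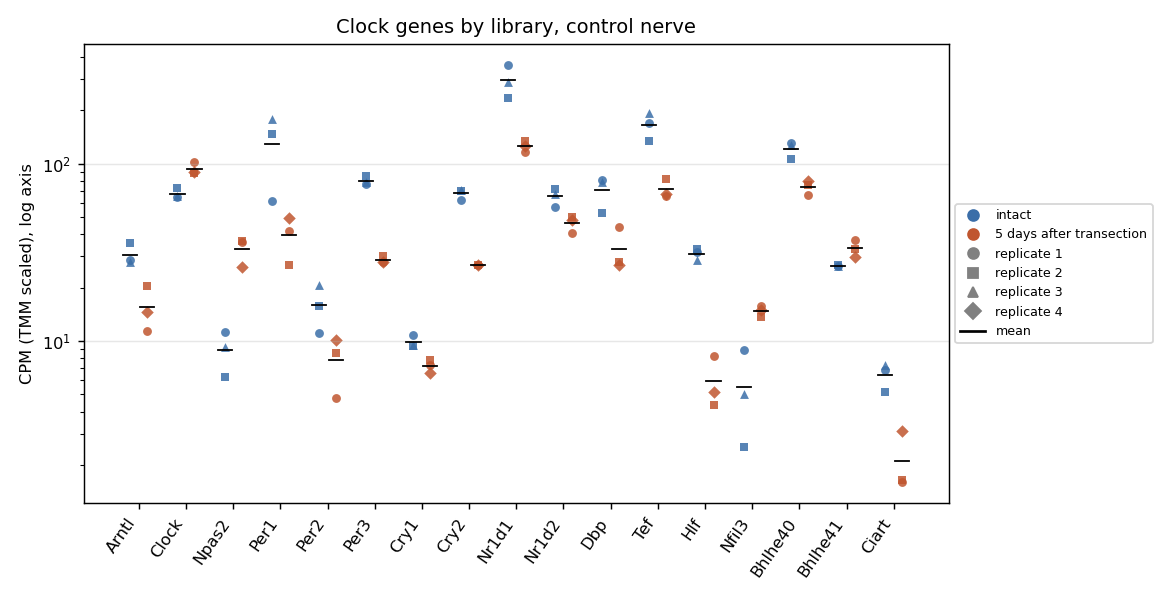
CPM in each library (log axis) for 17 clock genes, blue for intact and orange for injured nerve, symbols for replicates and bars for group means. Cry2, Per3 and Hlf lie apart between groups with tight replicates, Clock and Npas2 are higher in injured nerve, and Per1 spreads widely among intact libraries, from 61.9 to 179.6 CPM.

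Among nuclear receptors, ligand-gated transcription factors, 6 of 39 tested members rose and 16 fell, with a median log2 change of -0.29. Rxrg, the retinoid X receptor gamma, measured 45.9, 52.9 and 43.4 CPM in intact and 5.6, 4.34 and 4.85 CPM in injured nerve (log2 change -3.26 ± 0.16, adjusted p = 9.13e-10). The early-response receptor Nr4a1 measured 137, 177 and 152 CPM in intact and 53.8, 47 and 48.7 CPM in injured nerve (log2 change -1.64 ± 0.13, adjusted p = 1.44e-07). The thyroid hormone receptor Thra measured 411, 355 and 384 CPM in intact and 175, 182 and 163 CPM in injured nerve (log2 change -1.15 ± 0.10, adjusted p = 3.34e-07). The bile acid receptor Nr1h4 rose from 1.28, 1.07 and 2.42 CPM to 45.3, 48 and 49.8 CPM (log2 change 4.89 ± 0.33, adjusted p = 3.6e-08). Of retinoic acid genes, 6 of 19 rose and 5 fell, near the 24.4% and 22.4% of all models; the synthesising enzymes moved in opposite directions, with Aldh1a1 at 174, 225 and 146 CPM in intact and 24.4, 13.6 and 12.5 CPM in injured nerve (log2 change -3.43 ± 0.30, adjusted p = 2.83e-06) and Aldh1a2 at 4.1, 0.744 and 2.32 CPM in intact and 23.6, 21.9 and 23.6 CPM in injured nerve (log2 change 3.26 ± 0.40, adjusted p = 1.46e-05).

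Zinc finger genes named Zfp, many of which encode DNA-binding repressors, fell in a larger share than the 22.4% of all models: 137 of 353 tested members fell (38.8%) and 19 rose (5.38%), with a median log2 change of -0.42. Without intact replicate 1 or 3, 10 and 11 rose. Zfp91 measured 658, 948 and 652 CPM in intact and 159, 156 and 126 CPM in injured nerve (log2 change -2.36 ± 0.18, adjusted p = 7.42e-08), and Zfp651 (-1.92 ± 0.10), Zfp664 (-1.61 ± 0.12) and Zfp706 (-1.37 ± 0.11) fell as well. Of the 7 STAT factors, which carry cytokine signals to the nucleus, 0 rose by edgeR's test, also at an unadjusted p under 0.05 and by DESeq2, and 5 fell. Stat3, whose protein is known to be activated by phosphorylation in injured nerve, measured 186, 214 and 184 CPM in intact and 126, 148 and 119 CPM in injured nerve (log2 change -0.57 ± 0.11, adjusted p = 0.000554). Stat2 (-0.80 ± 0.21), Stat6 (-0.61 ± 0.08) and Stat4 (-0.62 ± 0.21) fell, Stat4 not past the test without injured replicate 2 (-0.53) or 4 (-0.55), and the 2 that did not pass were Stat5a (0.16 ± 0.13) and Stat5b (-0.08 ± 0.13).

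Of polycomb and DNA methylation genes 9 of 30 rose and 12 fell, against 24.4% and 22.4% of all models. Uhrf1, which recruits the maintenance methyltransferase during replication, measured 1.68, 0.992 and 1.55 CPM in intact and 86.6, 78.2 and 57.1 CPM in injured nerve (log2 change 5.70 ± 0.26, adjusted p = 6.45e-10). The histone methyltransferase Ezh2 rose (17.3, 20.8 and 17.4 CPM in intact and 69.5, 75.2 and 63.6 CPM in injured nerve; log2 change 1.91 ± 0.13, adjusted p = 2.67e-08), and its relative Ezh1 fell (116, 131 and 109.7 CPM in intact and 58.4, 53 and 41.8 CPM in injured nerve; log2 change -1.22 ± 0.12, adjusted p = 1.67e-06). Cbx7, a reader of the polycomb mark, measured 134, 144 and 119 CPM in intact and 35.6, 21.6 and 23.4 CPM in injured nerve (log2 change -2.30 ± 0.17, adjusted p = 6.06e-08), and the polycomb-associated factor Phf19 rose (3.01 ± 0.24). Of genes of homologous recombination and crosslink repair, 17 of 28 rose and 2 fell (1 without intact replicate 3, injured replicate 1 or injured replicate 4), led by Bard1 (3.50 ± 0.22), Rad51ap1 (2.68 ± 0.18), Ube2t (6.16 ± 0.41) and Exo1 (4.90 ± 0.45).

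Genes of the translation and protein turnover machinery rose by small amounts in large numbers. Of 82 models with names of cytosolic ribosomal proteins, 80 were tested, 64 rose (80.0%) and 0 fell, against 24.4% and 22.4% of all models. The median log2 change was 0.72. At an unadjusted p under 0.05, and by DESeq2, 0 fell as well. Rps9 measured 156, 143 and 154 CPM in intact and 391, 391 and 377 CPM in injured nerve (log2 change 1.35 ± 0.14, adjusted p = 1.87e-06), Rps4x 109, 100.0 and 93.9 CPM in intact and 207, 198 and 218 CPM in injured nerve (log2 change 1.04 ± 0.11, adjusted p = 1.91e-06), and Rpl27a (1.02 ± 0.11) and Rpl23 (1.04 ± 0.11) rose alike. The median differed between injured libraries, at 0.92, 0.70 and 0.47 against the intact mean (log2 of CPM plus 0.125), and lay between 0.63 and 0.82 over the alternatives. Under DESeq2's size factors it was 0.68 with 61 rises, and under upper-quartile scaling 0.73 with 65. Many of these genes have processed pseudogenes that share reads with them.

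Over all models 24.4% rose and 22.4% fell. Mitochondrial ribosomal proteins and the proteasome, the machine that degrades tagged proteins, followed with smaller medians. Of the former, 34 of 80 tested members rose and 4 fell, with a median log2 change of 0.35; Mrpl20 measured 13.2, 10.4 and 12.3 CPM in intact and 28, 30.7 and 27.9 CPM in injured nerve (log2 change 1.27 ± 0.15, adjusted p = 8.89e-06). Of genes with proteasome names, 28 of 51 tested members rose and 2 fell, with a median log2 change of 0.40. Psmd8, a subunit of the regulatory particle, measured 73.3, 63.9 and 64.7 CPM in intact and 154, 146 and 134 CPM in injured nerve (log2 change 1.10 ± 0.11, adjusted p = 8.57e-07), while Psmf1, an inhibitor of the proteasome, fell (103, 116 and 86.4 CPM in intact and 36.8, 39 and 34.9 CPM in injured nerve; log2 change -1.46 ± 0.12, adjusted p = 1.16e-07). Of splicing factors, 20 of 40 rose and 5 fell, and of nuclear pore and transport genes 18 of 30 rose and 2 fell (4 without intact replicate 1 and 1 without injured replicate 4). Ran, the GTPase that powers nuclear transport, measured 60.3, 61 and 62.9 CPM in intact and 225, 185 and 223 CPM in injured nerve (log2 change 1.78 ± 0.11, adjusted p = 1.41e-08). The importin Kpna2 measured 4.97, 3.51 and 4.18 CPM in intact and 37.9, 36.7 and 33.3 CPM in injured nerve (log2 change 3.09 ± 0.18, adjusted p = 4.47e-09).

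Direction varied with gene length over the whole table. In the group with the shortest summed exons, of 4 equal groups (27 to 1707 bases) the median log2 change was 0.33, with 26.7% that rose and 12.6% that fell. In the longest group (5846 to 123179 bases) the median was -0.10, with 21.4% and 33.8%. Each of the 3 injured libraries showed the same order of the 4 groups. Within them the cytosolic ribosomal proteins had medians of 0.75, 0.68 and 0.80 in the 3 groups of shorter exons, and 0.60 for the 2 in the longest group. The Zfp genes had medians of -0.36, -0.43 and -0.45 in the 3 groups of longer exons, and the 8 in the shortest group a median of 0.00, of which 2 fell. The part of length in any of these group results was not tested beyond these values. Of 1987 processed pseudogenes 628 rose and 168 fell, and of 928 antisense genes 125 rose and 233 fell; the sources used here do not say which strand was counted, so reads of antisense and overlapping genes may mix.

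**Figure D3:**
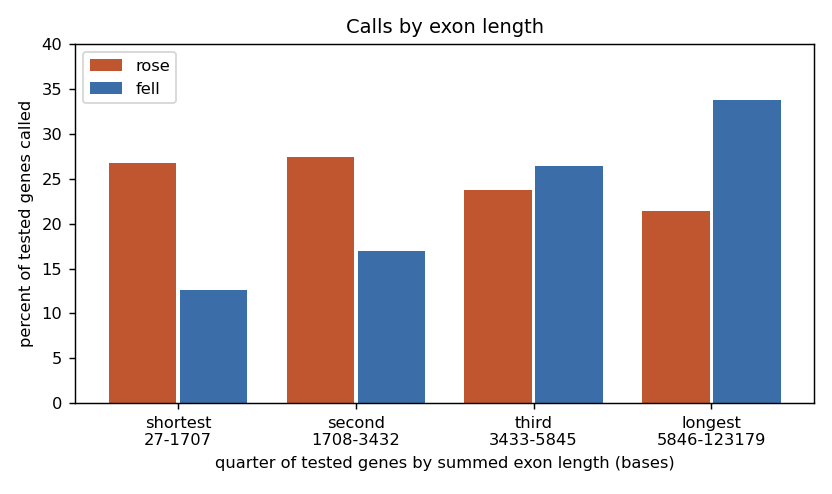
Percent of tested models that rose (orange) and fell (blue) in 4 equal groups of models by summed exon length in bases. The share that fell climbs from 12.6% in the shortest to 33.8% in the longest group, while the share that rose is between 21.4% and 27.4%.

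Genes used as internal references for quantitative PCR were among those that changed. Of 24 tested, 17 rose, by log2 0.35 to 1.70, and 3 fell, with a median of 0.69 against 0.09 for all models. Gusb, a lysosomal enzyme, measured 32, 33.3 and 28.5 CPM in intact and 104, 99 and 102 CPM in injured nerve (log2 change 1.70 ± 0.10, adjusted p = 3.66e-09). Gapdh measured 45.1, 40.6 and 44.9 CPM in intact and 92.3, 69.2 and 60.7 CPM in injured nerve (log2 change 0.77 ± 0.16, adjusted p = 0.00126), Actb 1099, 1068 and 1044 CPM in intact and 1917, 1832 and 1725 CPM in injured nerve (log2 change 0.77 ± 0.10, adjusted p = 1.93e-05) and Hprt 33, 34.3 and 29.4 CPM in intact and 62.5, 54.7 and 50.8 CPM in injured nerve (log2 change 0.80 ± 0.12, adjusted p = 9.7e-05). The ribosomal protein gene Rplp0 (1.18 ± 0.11), the cyclophilin Ppia (0.93 ± 0.08) and the cytoplasmic actin Actg1 (1.14 ± 0.10) rose by similar amounts. The others that rose were Tubb5 (0.96 ± 0.10), Pgk1 (1.00 ± 0.11), Eef1a1 (0.89 ± 0.10), Pgam1 (0.82 ± 0.10), Rpl13a (0.61 ± 0.11), Ywhaz (0.51 ± 0.11), Rps18 (0.46 ± 0.10), Psmb2 (0.43 ± 0.10) and Eif2b2 (0.35 ± 0.13). Eif2b2 did not pass without injured replicate 1 (0.17) or without intact replicate 1 (0.28), 2 (0.31) or 3 (0.32).

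Among the references that fell were the transferrin receptor Tfrc (34, 47.8 and 47.6 CPM in intact and 18.6, 15.2 and 16.5 CPM in injured nerve; log2 change -1.36 ± 0.15, adjusted p = 4.76e-06) and the succinate dehydrogenase subunit Sdha (-0.36 ± 0.10). The 4 that did not pass the test were Rer1, with 105, 117 and 114 CPM in intact and 119, 107 and 124 CPM in injured nerve, Polr2a, Tbp and B2m. Their 95% intervals for the log2 change ran from -0.11 to 0.23 for Rer1, from -0.32 to 0.28 for Polr2a, from -0.32 to 0.14 for Tbp and from 0.03 to 0.51 for B2m, so that changes within these bounds are possible. The estimates for Rer1 and Polr2a (0.06 ± 0.09 and -0.02 ± 0.15) are relative to TMM scaling; under DESeq2's size factors the median of all models was 0.05.

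**Figure D4:**
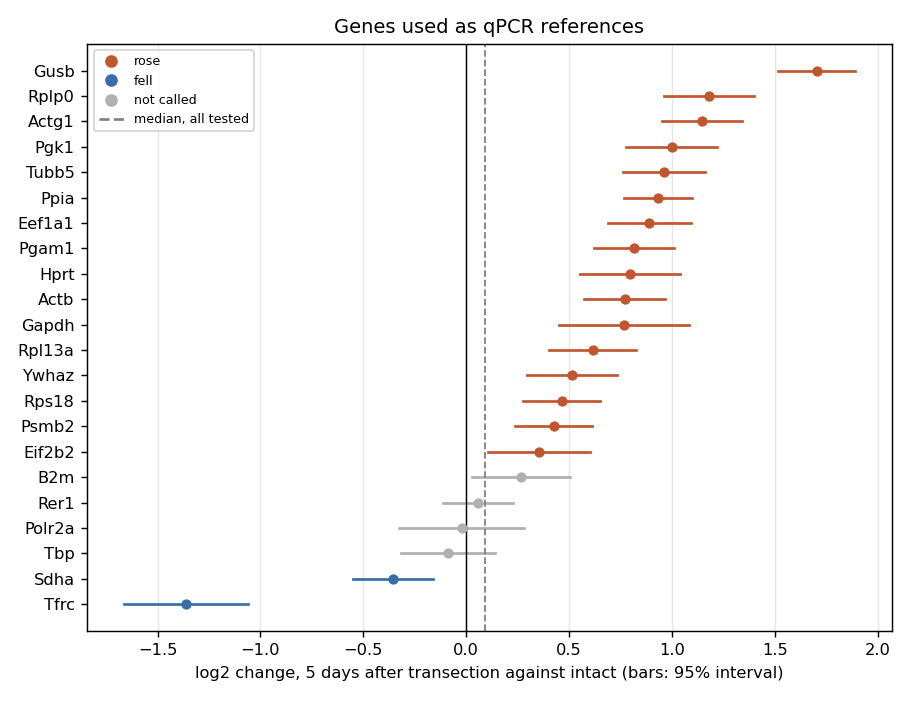
Log2 change from intact to injured nerve for 22 of the 24 tested genes used as qPCR references; points are estimates of the fit over all genes and bars their 95% intervals, orange for genes that rose, blue for genes that fell and grey for genes that did not pass the test. Gusb lies highest at 1.70 and Tfrc lowest at -1.36, and the intervals of Rer1, Polr2a and Tbp include 0.

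Iron is stored in the shell of ferritin. Fth1, its heavy chain, measured 5862, 7101 and 5311 CPM in intact and 1540.0, 1392 and 1416 CPM in injured nerve (log2 change -2.07 ± 0.12, adjusted p = 4.34e-09). Ftl1, its light chain, measured 353, 324 and 314 CPM in intact and 695, 743 and 829 CPM in injured nerve (log2 change 1.19 ± 0.12, adjusted p = 1.39e-06). Steap3, an endosomal iron reductase, measured 75, 45 and 40.4 CPM in intact and 344, 332 and 312 CPM in injured nerve (log2 change 2.62 ± 0.20, adjusted p = 1.18e-07), and Slc11a1, the iron transporter of phagosomes, rose (1.56 ± 0.17). Over the list 8 of 29 rose and 6 fell, near the 24.4% and 22.4% of all models. Of glutathione and NRF2 target genes 10 of 35 rose and 16 fell, with a median log2 change of -0.25. The rises were led by Srxn1, which repairs oxidised peroxiredoxins (39.1, 38.7 and 37.9 CPM in intact and 243, 210.1 and 207 CPM in injured nerve; log2 change 2.51 ± 0.10, adjusted p = 1.14e-10), Gstp1 (2.11 ± 0.12), Prdx1 (1.90 ± 0.12) and Gpx1 (1.99 ± 0.15). Among the members that fell were Mgst3, a microsomal glutathione transferase (27.2, 31.2 and 28.2 CPM in intact and 10.7, 8.02 and 9.98 CPM in injured nerve; log2 change -1.59 ± 0.14, adjusted p = 3.52e-07), Sod3, the extracellular superoxide dismutase (232, 229 and 188 CPM in intact and 76.4, 91.2 and 110.0 CPM in injured nerve; log2 change -1.22 ± 0.15, adjusted p = 1.04e-05), and Tkt, the transketolase of the pentose phosphate pathway (-0.71 ± 0.11).

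Amino acid transport and one-carbon genes fell more often than they rose. Of amino acid transporters 4 of 27 rose and 9 fell, against 24.4% and 22.4% of all models. Without intact replicate 3, 5 rose and 7 fell, and the median log2 change went from -0.33 to -0.00. Slc36a2, a proton-coupled transporter of small amino acids, measured 507, 643 and 546 CPM in intact and 34.4, 30.5 and 45.2 CPM in injured nerve (log2 change -3.95 ± 0.17, adjusted p = 2.86e-10). Slc7a5, the large neutral amino acid exchanger, measured 133, 178 and 178 CPM in intact and 22.6, 23 and 17.4 CPM in injured nerve (log2 change -2.96 ± 0.25, adjusted p = 9.2e-07). Slc7a8, a relative, measured 6.8, 5.04 and 5.8 CPM in intact and 34.1, 25.4 and 33.5 CPM in injured nerve (log2 change 2.39 ± 0.19, adjusted p = 1.23e-07), so these relatives moved in opposite directions. In serine and one-carbon metabolism, 3 of 20 rose and 7 fell, against the same shares of all models. The enzymes Phgdh, the first enzyme of serine synthesis (55.5, 73.5 and 65 CPM in intact and 14.6, 15.4 and 13 CPM in injured nerve; log2 change -2.17 ± 0.15, adjusted p = 3.21e-08), and Mthfd1 (-1.29 ± 0.13) fell, while the mitochondrial folate enzyme Mthfd2 rose (6.91, 7.56 and 7.34 CPM in intact and 17.8, 17.3 and 15.4 CPM in injured nerve; log2 change 1.21 ± 0.16, adjusted p = 2.58e-05).

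Of polyamine genes 5 of 14 rose and 4 fell, against 24.4% and 22.4% of all models. Arg1, the arginase of alternatively activated macrophages, measured 0.549, 0.62 and 0.597 CPM in intact and 14.4, 14.8 and 12 CPM in injured nerve (log2 change 4.53 ± 0.25, adjusted p = 3.19e-09), while the rate-limiting enzyme of the pathway, Odc1, fell (-0.84 ± 0.16), as did the spermine oxidase Smox (-1.71 ± 0.12). Of hypoxia-induced genes 4 of 25 rose and 9 fell; besides Ndrg1, P4ha1 (adjusted p = 1.69e-08) and the oxygen sensor Egln1 (-1.51 ± 0.11) fell, and the glycolytic Pgk1 rose.

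Genes of innate immune sensing were higher in injured nerve. Of 12 Toll-like receptors, which recognise microbial and damage-associated molecules, 7 rose and 0 fell by edgeR's test. None fell at an unadjusted p under 0.05 or by DESeq2 either. Over all models 24.4% rose and 22.4% fell. Tlr13 measured 0.878, 1.12 and 0.562 CPM in intact and 8.33, 7.83 and 8.42 CPM in injured nerve (log2 change 3.27 ± 0.29, adjusted p = 4.38e-07), Tlr4 10.5, 6.45 and 11.9 CPM in intact and 31.5, 26.9 and 27.5 CPM in injured nerve (log2 change 1.57 ± 0.20, adjusted p = 1.55e-05) and Tlr2 3.04, 2.11 and 2.53 CPM in intact and 6.73, 11.4 and 8.63 CPM in injured nerve (log2 change 1.80 ± 0.27, adjusted p = 6.82e-05). Tlr3 did not pass the test (0.09 ± 0.23). Of Fc receptors, by which phagocytes bind antibody, 9 of 13 tested rose; their common signalling chain Fcer1g measured 13.4, 13.4 and 11.7 CPM in intact and 61, 75.8 and 71.6 CPM in injured nerve (log2 change 2.44 ± 0.13, adjusted p = 2.07e-09) and Fcgr3 rose too (2.40 ± 0.32). Of 27 tested C-type lectins, 14 rose and 2 fell (1 without intact replicate 2 or 3 or injured replicate 2 or 4), among the rises Clec4a3 (1.83, 2.56 and 1.48 CPM in intact and 10.6, 13.3 and 17.8 CPM in injured nerve; log2 change 2.83 ± 0.35, adjusted p = 1.08e-05). Of 14 Fc receptors 13 and of 33 C-type lectins 27 passed the filter on low counts, which a gene low in intact nerve can pass through its injured libraries, so these counts describe tested members and not whole families.

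Inflammasome and lytic cell death genes rose at low levels: 13 of 18 rose and 1 fell, against 24.4% and 22.4% of all models. Naip5, a sensor of bacterial proteins, measured 2.71, 1.69 and 1.58 CPM in intact and 7.8, 7.74 and 10.5 CPM in injured nerve (log2 change 2.12 ± 0.26, adjusted p = 1.11e-05). Pycard, the adaptor of inflammasomes, measured 4.86, 2.89 and 3.9 CPM in intact and 11.9, 14.8 and 14.3 CPM in injured nerve (log2 change 1.81 ± 0.23, adjusted p = 1.71e-05). Ripk3 (2.16 ± 0.38) and Mlkl (1.19 ± 0.20), the kinase and effector of necroptosis, rose as well. Of leukotriene and prostaglandin genes 9 of 26 rose and 3 fell (1 without injured replicate 2). The rises were led by Alox5ap, the 5-lipoxygenase activating protein (6.62, 5.66 and 5.76 CPM in intact and 22, 36.8 and 54.1 CPM in injured nerve; log2 change 2.64 ± 0.26, adjusted p = 1.39e-06), Tbxas1 (2.57 ± 0.27) and Hpgds (2.24 ± 0.26). Of chemokines 12 of 33 rose and 3 fell (5 without intact replicate 2 or injured replicate 1). Ccl9 measured 9.29, 11.5 and 9.91 CPM in intact and 81.4, 72.3 and 78.7 CPM in injured nerve (log2 change 2.92 ± 0.24, adjusted p = 5.46e-07), Cxcl16 rose (2.24 ± 0.26), and Cxcl12, a chemokine of stromal cells, fell (244, 156 and 226 CPM in intact and 97.5, 99.7 and 99.1 CPM in injured nerve; log2 change -1.08 ± 0.14, adjusted p = 2.32e-05).

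Few interferon-stimulated genes passed the test. Of 30 tested, 2 rose and 6 fell, against 24.4% and 22.4% of all models. In the full fit the share that fell was thus near the background, and the share that rose was below it. The list's median was -0.06, between -0.23 and 0.14 over the alternatives. Ifit3 measured 33.4, 36.9 and 82.1 CPM in intact and 14.1, 19.7 and 13.4 CPM in injured nerve (log2 change -1.69 ± 0.39, adjusted p = 0.00427). Xaf1 measured 41.4, 62.3 and 62.6 CPM in intact and 31.6, 36.4 and 33.5 CPM in injured nerve (log2 change -0.71 ± 0.16, adjusted p = 0.00169). Intact replicate 3 was the highest for Ifit3. The members that rose were Oas3 (2.62 ± 0.69) and Oas1a (1.39 ± 0.40), the latter not past the test without intact replicate 1 (1.19) or 2 (1.18). Without injured replicate 1, 6 rose and 6 fell; without intact replicate 3, 6 rose and 5 fell; without intact replicate 1 or 2, 1 rose and 7 fell.

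Markers of neutrophils and most markers of lymphocytes were low in both groups. The 10 tested of 15 neutrophil markers summed to 6.24 to 11.5 CPM in intact and 25.7 to 50.7 CPM in injured nerve, and the defining S100a8 and S100a9 had at most 2.03 and 1.31 CPM. Of T and NK lymphocyte markers 13 of 23 tested rose, and apart from Gzmb, Ctla4 and Foxp3 those that rose stayed below 4 CPM in every library. Ctla4 measured 57.7, 47.7 and 50.7 CPM in intact and 96.2, 83.6 and 82.4 CPM in injured nerve and Foxp3 7.28, 6.08 and 9.73 CPM in intact and 18, 20.2 and 14.3 CPM in injured nerve, which is high in intact nerve beside Cd4, at 0.256, 0.289 and 0.386 CPM. Of 11 tested fat cell markers 0 rose and 0 fell, and of 12 tested smooth muscle and pericyte markers 0 rose and 3 fell; the counts of 0 were also 0 at an unadjusted p under 0.05 by edgeR and by DESeq2. The part of cell number in the results on immune genes was not tested.

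Of the BCL2 family and caspases, 15 of 26 tested members rose and 5 fell, against 24.4% and 22.4% of all models. The median log2 change was 0.79. The survival factor Bcl2l2 measured 187, 221 and 206 CPM in intact and 59.9, 58.6 and 56 CPM in injured nerve (log2 change -1.82 ± 0.09, adjusted p = 1.81e-09), whereas the survival factors Mcl1 (0.90 ± 0.10), Bcl2 (0.81 ± 0.11) and Bcl2a1b (3.63 ± 0.30) rose together with the death-promoting Casp8 (1.17 ± 0.12) and Bax (0.87 ± 0.16). Of p53 target genes 12 of 25 rose and 4 fell, against the same shares of all models. The best-known target, the cell cycle inhibitor Cdkn1a, measured 554, 677 and 567 CPM in intact and 120.3, 125 and 90.6 CPM in injured nerve (log2 change -2.42 ± 0.16, adjusted p = 1.8e-08), and Sesn1 fell (-1.95 ± 0.17), while Pidd1 (listed as Lrdd, 2.77 ± 0.33) and Gdf15 (3.16 ± 0.55) rose.

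Of 43 collagen genes tested 11 rose (7 without intact replicate 2) and 13 fell, against 24.4% and 22.4% of all models, so neither count stood far from the background. Col23a1, a transmembrane collagen, measured 412, 596 and 496 CPM in intact and 13.1, 13.5 and 15.6 CPM in injured nerve (log2 change -5.16 ± 0.17, adjusted p = 2.3e-11). Col5a3 measured 862, 921 and 942 CPM in intact and 205, 225 and 222 CPM in injured nerve (log2 change -2.06 ± 0.10, adjusted p = 1.4e-09). The basement membrane collagen Col4a1 measured 1225, 1369 and 1353 CPM in intact and 468, 601 and 624 CPM in injured nerve (log2 change -1.22 ± 0.11, adjusted p = 7.05e-07). Col18a1, another collagen of basement membranes and the source of endostatin, measured 242, 278 and 249 CPM in intact and 1132, 1131 and 981 CPM in injured nerve (log2 change 2.08 ± 0.12, adjusted p = 5.74e-09). Col8a2 fell (-3.90 ± 0.24).

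Imprinted genes, expressed from 1 parental copy, rose in 12 and fell in 6 of 25 tested cases, against 24.4% and 22.4% of all models. H19, a long noncoding RNA active in growing tissue, measured 132, 37.5 and 221 CPM in intact and 683, 533 and 722 CPM in injured nerve (log2 change 2.31 ± 0.52, adjusted p = 0.00521), and Igf2r rose (0.87 ± 0.13). Snrpn (34.1, 41.7 and 36.2 CPM in intact and 12.3, 13.5 and 13.8 CPM in injured nerve; log2 change -1.50 ± 0.12, adjusted p = 1.1e-07), Zrsr1 (-1.90 ± 0.16), Impact (-0.88 ± 0.11) and Sgce (-0.75 ± 0.10) fell. Without intact replicate 2, in which H19 was lowest, 6 rose and 7 fell, and without intact replicate 1, 7 rose and 6 fell.

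**Figure D5:**
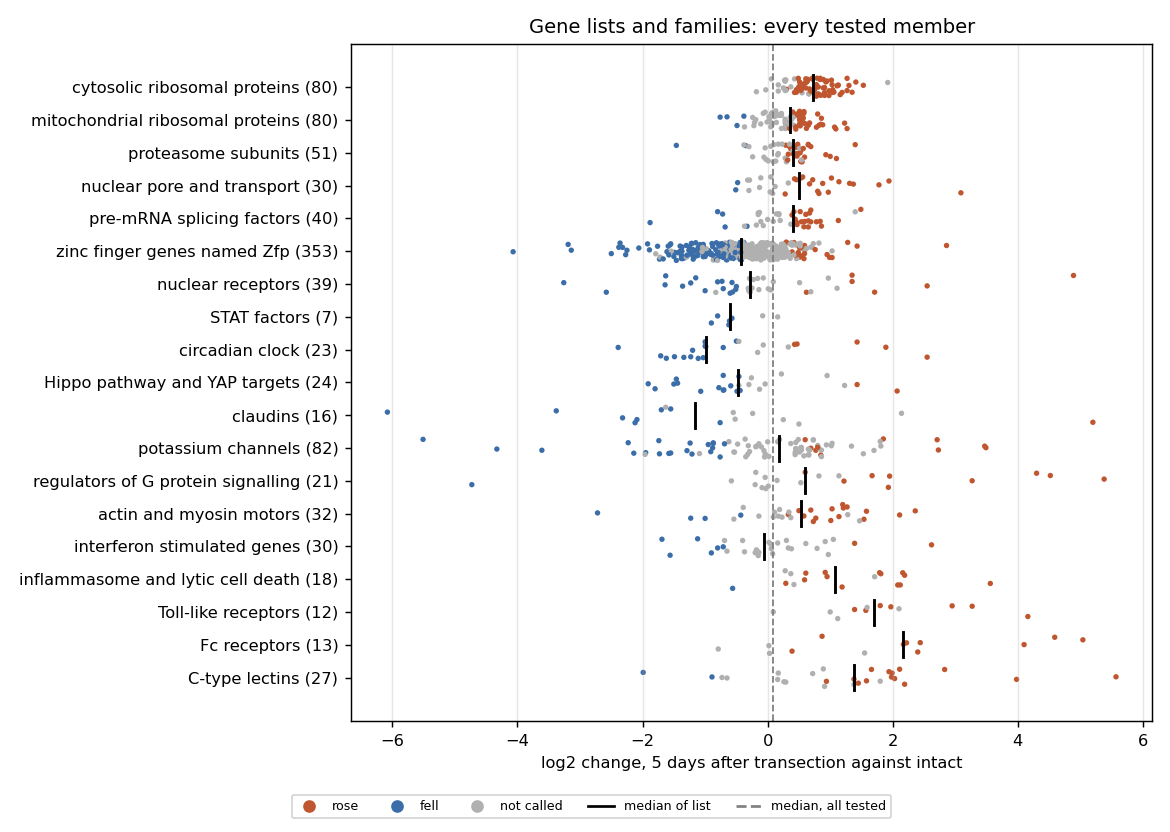
Log2 change of every tested member of 19 gene lists and families (number tested in brackets), each point a gene, orange for rises, blue for falls and grey for genes that did not pass the test; black bars are list medians and the dashed line is the median of all tested models, 0.09. Cytosolic ribosomal proteins sit mostly to the right of the dashed line with none that fell, Zfp, STAT and clock genes mostly to its left, and innate immune families mostly to its right.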

How the data were processed

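Polyadenylated RNA was sequenced from Ion Total RNA-Seq Kit v2 libraries, per the labels' protocols. The authors deposited raw read counts for 38087 gene models and a second table of normalized signal, which equals the counts divided by 1 factor per library. The submitters' processing notes name DESeq2, R 4.2.1 and mm10; the aligner, counter, annotation and strand setting are not named there or in the labels. Groups came from the labels, which give 3 biological replicates each. Counts were tested with edgeR 4.0.16 (R 4.3.3): filterByExpr with a minimum count of 10, TMM scaling, and a quasi-likelihood fit of 4 group means over all 12 libraries, with Benjamini-Hochberg adjustment over 22384 models and a threshold of 0.05. Standard errors are the log2 change divided by the root of F. The fit was tested on simulated data. Alternatives used DESeq2 1.42.0, limma 3.58.1 on log2 of the normalized signal plus 1, other scalings, filters and covariates, a replicate block, and each library left out.

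Exon lengths and biotypes came from GENCODE (GRCm38), with 20940 tested models (93.5%) matched to 1 gene, and promoters from RefSeq GRCm38.p6. Gene models with 278 repeated symbols were tested on their own lines. Named genes were the 10 largest rises and falls in CPM and in ratio whose groups did not overlap, up to 4 members of each list with the smallest p, its defining members, all qPCR references, and 5 genes per direction that were absent in one group. Other genes were chosen after their values were seen, among them those that show opposite movement within a list. The members and lists were chosen with earlier results of these data known. Counting precision follows from total counts of 21679659 to 31176640 per library. Some measured genes and lists are not reported here.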

Additional observations from a re-analysis of the deposited data

How the results depend on the processing

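The numbers of models called stayed within 1.5 times of 10474 under all alternatives but 1. Requiring a log2 change of more than 1 left 2764 models, of which 1398 rose and 1366 fell. Leaving out each library in turn gave 9193 to 10064 called models, 4420 to 5324 that rose and 4515 to 5245 that fell. Under DESeq2 5422 rose and 5573 fell. No model called in both fits had the opposite direction (0 under each alternative). With presence set at 2 CPM, 10 models were present only in injured and 3 only in intact nerve. Of 257 named genes past the test, 179 passed under all 17 alternatives. The minimum change of 1 accounted for a loss in all 78 others, and 0 named genes reversed. Of 49 lists, 12 had a median that changed sign under at least 1 alternative, and 35 a median that moved by more than the spread between injured libraries. The labels do not say whether libraries with the same replicate number came from 1 mouse. Injured replicate 1 did not share a mouse with any intact library, by its Xist and Y-linked counts. Deviations of same-numbered libraries from their group means correlated at -0.0895 for replicate 1 and -0.00496 for replicate 2. With 3 libraries per group such a value cannot decide whether replicate 2 was paired. With a replicate block 9419 models were called, 4814 up and 4605 down. The labels record removal of the epineurium for intact nerves and no such step for injured ones, so its part in the differences cannot be told apart from injury.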
